A study of Mus musculus with 10 samples.

Results

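Of the 44580 gene IDs in the ATAC-seq count table, 8716 (19.6%) carried a single peak, and the peaks of these genes are described here. They were found by dropping the 22 entries without values and the 594 peaks without a gene ID, counting peaks per gene ID and keeping the IDs that occurred exactly once, without use of the counts. The 8716 peaks are 3.54% of the 246479 peaks with values. Intestinal epithelial cells (IECs) were taken from the proximal small intestine of 5 wild-type mice (WT1 to WT5) and 5 mice with a global knockout of the zinc transporter Zip14 (Slc39a14, KO6 to KO10). In the study's methods the KO mice carry a targeted deletion within Zip14 in every tissue, heterozygous parents gave both genotypes, the strain was backcrossed to C57BL/6, and mice were young adults, female unless stated otherwise. The IECs were released with EDTA and purified by flow sorting, and each library is 1 mouse, so the comparison reads the whole epithelium and cannot separate fewer cells of a type from a change within cells. The deletion was not limited to the epithelium, so effects of other tissues on the IECs cannot be told apart from effects within them.

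In ATAC-seq a transposase cuts DNA and leaves sequencing adapters where nucleosomes do not cover it, so reads pile up over open promoters and enhancers. Promoters of widely expressed genes, often rich in CG dinucleotides, are open in most cell types, while enhancers are open in few, and a long gene or one in a gene-poor region can gather many of them. The mouse gene annotation also holds many pseudogenes, olfactory receptors and noncoding RNAs that have little or no open chromatin in a given tissue. Where in its gene each peak lies was not used here, since the table gives a gene ID and counts but no coordinates or width, and levels are therefore counts per peak and not per length.

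Promoters from RefSeq (GRCm38.p6, 300 bases around an annotated start) are shown for 6 single-peak genes to set the range of sequence against the range of level, and capitals mark CG dinucleotides. B3gnt3, which extends O-linked sugar chains, and Atp5e, the epsilon subunit of ATP synthase, were 2 of the 3 strongest named genes. Gm9917 and 2610507I01Rik, both long noncoding RNAs, were the 2 named genes whose lower level in KO mice had an unadjusted p under 0.05. Slc10a2 is the bile acid transporter of the apical membrane, and Trim34b, of the antiviral Trim family, was near the limit of detection. The windows are chr8:71701751-71702050, chr2:174464052-174464351, chr9:107566916-107567215, chr11:59202382-59202681 and chr8:5105238-5105537, all on the minus strand, and chr7:104329221-104329520 on the plus strand, each written 5′ to 3′ along its gene.
B3gnt3: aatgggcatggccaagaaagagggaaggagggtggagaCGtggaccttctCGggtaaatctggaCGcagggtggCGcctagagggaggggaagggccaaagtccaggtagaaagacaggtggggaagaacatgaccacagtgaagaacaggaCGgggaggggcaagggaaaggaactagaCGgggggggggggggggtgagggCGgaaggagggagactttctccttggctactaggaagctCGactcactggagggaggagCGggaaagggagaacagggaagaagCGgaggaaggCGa
Atp5e: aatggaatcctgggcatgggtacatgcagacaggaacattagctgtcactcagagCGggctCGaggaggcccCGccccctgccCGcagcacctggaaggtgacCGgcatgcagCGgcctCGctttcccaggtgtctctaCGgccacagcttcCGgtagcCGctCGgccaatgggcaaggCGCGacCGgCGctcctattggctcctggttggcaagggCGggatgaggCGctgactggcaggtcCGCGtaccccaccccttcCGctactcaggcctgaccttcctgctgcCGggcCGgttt
Gm9917: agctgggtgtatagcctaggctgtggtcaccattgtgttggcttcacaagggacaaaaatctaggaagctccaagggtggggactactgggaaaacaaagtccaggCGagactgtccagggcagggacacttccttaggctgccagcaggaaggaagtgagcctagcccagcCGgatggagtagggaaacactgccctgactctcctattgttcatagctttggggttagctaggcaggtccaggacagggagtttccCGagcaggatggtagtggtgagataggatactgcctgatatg
2610507I01Rik: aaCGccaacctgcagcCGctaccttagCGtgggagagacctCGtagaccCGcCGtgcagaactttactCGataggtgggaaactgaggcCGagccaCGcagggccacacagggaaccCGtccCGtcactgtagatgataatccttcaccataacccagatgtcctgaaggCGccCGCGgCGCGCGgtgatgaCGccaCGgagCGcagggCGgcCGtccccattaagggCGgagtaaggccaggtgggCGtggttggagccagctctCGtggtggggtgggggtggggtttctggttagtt
Slc10a2: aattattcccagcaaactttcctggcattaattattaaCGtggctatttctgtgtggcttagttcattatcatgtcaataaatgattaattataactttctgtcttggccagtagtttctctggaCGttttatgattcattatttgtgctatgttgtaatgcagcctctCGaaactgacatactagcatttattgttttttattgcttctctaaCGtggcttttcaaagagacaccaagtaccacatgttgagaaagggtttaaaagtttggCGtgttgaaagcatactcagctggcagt
Trim34b: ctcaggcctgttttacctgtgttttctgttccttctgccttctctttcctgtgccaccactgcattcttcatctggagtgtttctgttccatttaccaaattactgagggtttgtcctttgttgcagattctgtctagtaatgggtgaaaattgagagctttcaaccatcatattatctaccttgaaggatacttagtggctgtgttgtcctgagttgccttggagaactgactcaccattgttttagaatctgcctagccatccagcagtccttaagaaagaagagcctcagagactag
These windows hold 11, 22, 3, 25, 5 and 0 CG in the order shown. Over all 32851 promoters of the table the median was 7 CG, and 34.6% had 15 or more.

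A symbol was paired with an ID only through the study's list of transcripts that differed between the genotypes, which gave 42 of the 8716 genes a name. That list was chosen for its change in RNA from the same genotypes, so the 42 are not a sample of single-peak genes and their directions are not independent evidence. RefSeq calls 29 of them protein coding and 13 pseudogenes, antigen receptor segments or noncoding RNAs. Of the 26 with a promoter in the RefSeq table, 7 had a start with 15 or more CG and lay between 0.393 and 29.1 CPM (counts divided by the total of the mouse times a TMM scaling factor and given per 1000000, mean over 10 mice), and the other 19 lay between 0.40 and 68.7 CPM. The named gene of highest level with a promoter, B3gnt3, had 11 CG and Gm9917 had 3, while Fam124a, with 40 CG, had 5.1 CPM. The letters TATAAA, searched on both strands, stood in a window of 8 of these 26 genes against 13.6% of all promoters, GGGCGG in 10 against 35.7%, and CCAAT in 7 against 37.4%. No fixed marker of epithelium, lymphocytes, myeloid cells, endothelium or fibroblasts, and not Slc39a14 itself, was among the paired IDs, so neither the cell type nor the genotype was checked through them here. Total counts ran from 5202949 to 15775481 in the WT mice and from 4731176 to 6094983 in the KO mice. All WT mice but WT2 were deeper than every KO mouse, so the weak peaks of KO mice rest on fewer counts than those of these WT mice.

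Single-peak genes held weak peaks and strong peaks, with fewer in between than other genes had. The median level was 1.37 CPM, 43.3% of the 8716 were under 1 CPM, 33.0% between 1 and 10 CPM and 23.7% at 10 CPM or more, where 33.5 to 39.1% of the peaks of other genes were between 1 and 10 CPM. On the log2 scale the share of peaks fell to 3.77% in the bin from 2 to 2.5 and rose again to 5.66% in the bin from 4 to 4.5, a second rise that the other classes of genes did not have. At 10 CPM or more were 10.8% of the 66499 peaks of genes with 2 to 5 peaks, 6.41% of the 154879 peaks of genes with 6 to 29 and 4.03% of the 15791 peaks of genes with 30 or more. In each of the 10 mice the share at 10 CPM or more was 12.1 to 13.4 percentage points above that of genes with 2 to 5 peaks, and the median level was higher as well. Within genotypes the share was 23.7 to 24.5% in the WT mice and 22.3 to 23.6% in the KO mice. Against each of the 3 other classes both measures were higher in 10 of 10 mice (exact sign-flip permutation test over the 10 mice, two-sided p = 0.00195 for each of 6 comparisons, adjusted p = 0.00195, the smallest the design allows). The test speaks of the spread between mice, with the peak set held fixed. All mice share that peak set, so their agreement cannot decide whether single-peak genes as such differ from other genes.

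**Figure D1:**
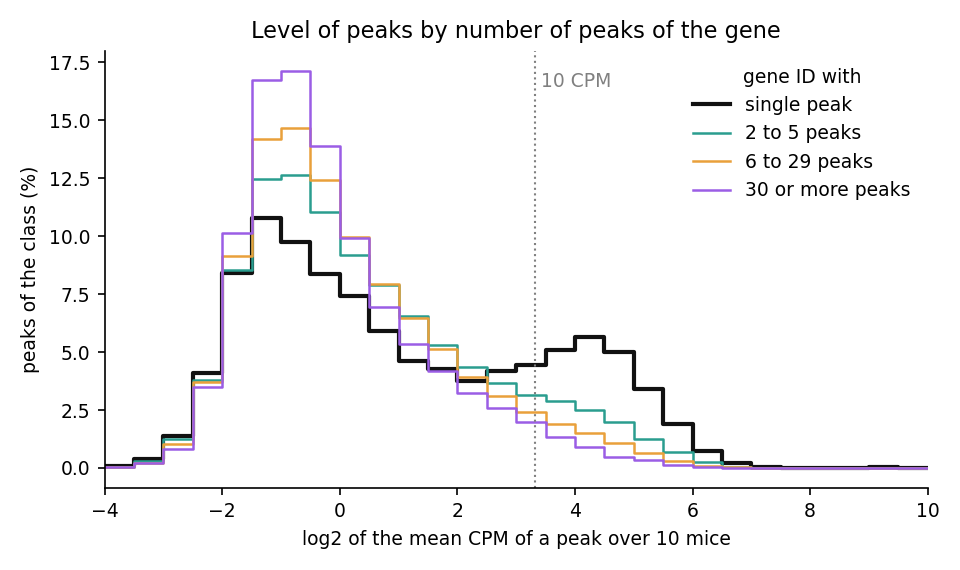
Level of peaks by the number of peaks of their gene, as the percent of each class (vertical axis) in bins of log2 mean CPM over 10 mice (horizontal axis). The black line of single-peak genes has a second rise at a log2 of 4 to 4.5, where it holds 5.66% against 2.52% for genes with 2 to 5 peaks.

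Counted by gene, a class with more peaks has a higher strongest peak by construction, so the following values are a description. The strongest peak of a gene had a median of 3.15 CPM with 2 to 5 peaks, 6.22 CPM with 6 to 29 and 10.4 CPM with 30 or more, all above the 1.37 CPM of single-peak genes. The 7000 IDs with exactly 2 peaks, those just outside the rule, had a median of 2.34 CPM in the stronger and 0.598 CPM in the weaker peak, and 24.7% of them had a stronger peak at 10 CPM or more. The share of genes with any peak at 10 CPM or more was thus 23.7% with 1 peak, 24.7% with 2 and 50.9% with 30 or more.

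The 3 strongest peaks of single-peak genes, given by ID and chosen after their values were seen, stood far above the rest, with a mean of 113645 CPM for ENSMUSG00000064357, 24122 CPM for ENSMUSG00000101111 and 14659 CPM for ENSMUSG00000098178, against 1182 CPM for the next. In counts, ENSMUSG00000064357 had 616991, 680968, 956081, 1246018 and 892342 in WT1 to WT5 and 840535, 770381, 756530, 581266 and 498192 in KO6 to KO10. No positions are given, but the peaks could be put in genomic order by their running number, as set out with the neighbouring genes, and in this order the peak lies between the named genes Dclk3 on chromosome 9 and Apln on chromosome X, ENSMUSG00000101111 lies between Gsta3 and Il1rl1 on chromosome 1, and ENSMUSG00000098178 lies between Ubd and Capn11 on chromosome 17. The count of ENSMUSG00000101111 was 18.9 to 22.7% of that of ENSMUSG00000064357 in every mouse, although this order places them far apart, while ENSMUSG00000098178 ranged from 10.3 to 19.7% of it. ENSMUSG00000064357 lies between the blocks of chromosomes 9 and X, so this order assigns it to neither. Whether its reads come from nuclear chromatin was not tested. Whether such peaks share reads through near-identical sequence was not tested.

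Through these 3 peaks the single-peak genes took a large part of the counts. Their share averaged 21.2% ± 4.09 over the WT mice and 23.3% ± 1.98 over the KO mice (SD, n = 5 each), from 15.8% in WT5 to 25.9% in WT4, with the KO mice inside the range of the WT mice. The 3 strongest alone accounted for 7.95% of the counts in WT5 and up to 18.8% in WT4. ENSMUSG00000064357 alone took 5.66% in WT5 and 14.4% in WT4, so the share does not measure how open single-peak genes in general were. The other 8713 took 7.53, 7.20, 7.35, 7.13 and 7.89% in WT1 to WT5 and 6.71, 7.10, 7.02, 6.99 and 7.02% in KO6 to KO10. The KO mean of 6.97% was below every WT mouse, but KO7, at 7.10%, was only just under WT4, at 7.13%. With the 3 strongest taken out of the total too, the share averaged 8.61% ± 0.129 over the WT mice and 8.33% ± 0.216 over the KO mice (SD, n = 5 each), and the groups overlapped, with KO7 at 8.67%. For the 3 strongest, the log2 fold changes of KO against WT were 0.30 (SE 0.36), 0.31 (SE 0.28) and 0.29 (SE 0.22) on the TMM scale, with edgeR adjusted p = 0.727, 0.632 and 0.549, and turned to -0.34, -0.20 and -0.24 with loess offsets, a scaling that takes out the trend of a mouse with peak level.

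**Figure D2:**
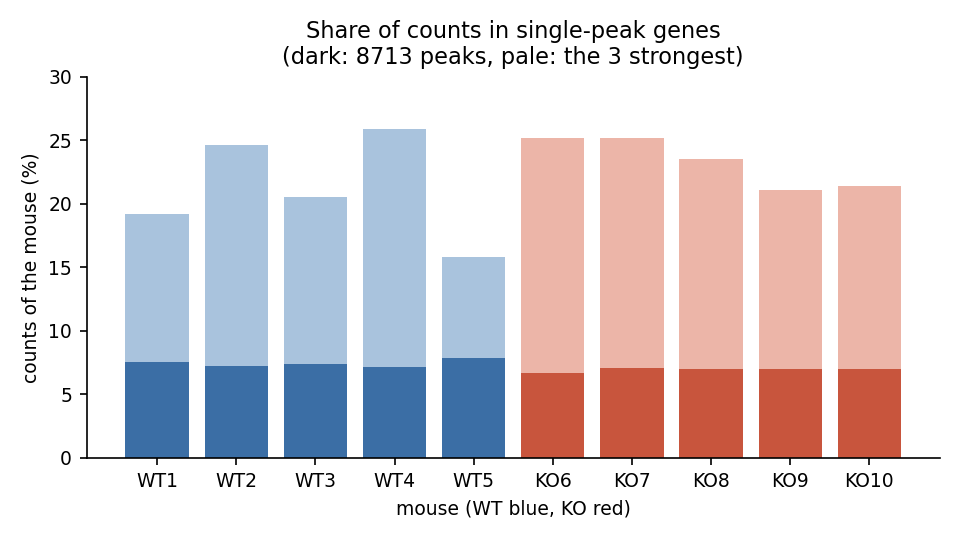
Percent of the counts of each mouse (vertical axis) in peaks of single-peak genes, WT mice in blue and KO mice in red. The pale part, the 3 strongest peaks, varies from 7.95 to 18.8%, and the dark part, the other 8713, from 6.71 to 7.89%.

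Most single-peak genes were seen in every mouse. At the deposited, unequal depth, at least 1 count in each of the 10 mice was found for 6377, while 4 had no count in any WT mouse and 11 none in any KO mouse. The same values over all peaks were not computed, so neither these nor the shares below are shown to be particular to single-peak genes. With every mouse brought to the total of the shallowest, 4731176 counts, the expected share with at least 1 count averaged 89.9% ± 1.70 over the WT mice and 91.9% ± 1.73 over the KO mice (SD, n = 5 each), and with at least 5 counts 55.9% ± 1.69 and 61.4% ± 2.83. The groups overlapped in both, since WT1, at 91.9 and 58.4%, lay above the lowest KO mouse. As deposited, at unequal depth, the order of the means was the opposite, at 94.9% ± 3.69 for WT and 93.1% ± 1.94 for KO.

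The genotypes were then compared with edgeR (quasi-likelihood test) over the 81022 peaks of the whole table that passed its filter on low counts. Of the 8716 single-peak genes 4063 (46.6%) passed, against 32.9% of all peaks. These were 2067 of the 2068 at 10 CPM or more, 1996 of the 2878 between 1 and 10 CPM and 0 of the 3770 under 1 CPM. At an unadjusted p under 0.05, 372 (9.16%) were higher in KO mice, where the background over all tested peaks is 10.4%, and 316 (7.78%) were lower, where it is 5.65%. After Benjamini-Hochberg adjustment over all 81022 peaks, 0 single-peak genes passed an adjusted p of 0.05 in edgeR's quasi-likelihood test, with 688 at an unadjusted p under 0.05 and a lowest adjusted p of 0.0594, while DESeq2 gave 28, 26 of them higher, where the background is 0.681%, and edgeR on peaks with at least 10 counts in every mouse gave 45, where it is 1.58%. The split between directions differed between settings, with 299 higher (background 8.14%) and 541 lower (background 8.74%) for total counts without TMM factors, and 281 and 821 when counts were summed per gene ID before scaling (background 15.7 and 11.8% of the 36715 gene IDs tested in that fit). The counts of a single-peak gene are the same in all of these, while the scaling and, in the last, the features tested differ. Without WT2, 95 passed an adjusted p of 0.05, 87 of them higher, against 2.19% of all peaks tested in that fit. All KO mice were above all WT mice in 60 tested single-peak genes (1.48%, background 1.61%) and below them in 110 (2.71%, background 1.69%).

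The sign of the difference followed the level of the peak, as it did in the table as a whole. With all tested peaks in 4 groups of equal size by mean level, 547, 562, 868 and 2086 single-peak genes fell into the groups from weakest to strongest. Their median log2 fold changes were 0.30, 0.12, -0.04 and -0.09, beside 0.20, 0.06, -0.04 and -0.08 for all peaks of the same groups. In the weakest group 24.5% were higher at an unadjusted p under 0.05 and 1.83% were lower, against 17.4 and 1.66% of all peaks there. In the strongest group 2.30% were higher and 11.6% were lower, against 3.16 and 11% of all peaks there. Of the tested single-peak genes 51.3% fell into the strongest group. Their median over all 4 groups was -0.05, beside -0.0028 for all tested peaks, and whether level accounts for this difference was not tested. With loess offsets the 4 medians were 0.05, 0.02, -0.01 and -0.03. Without a filter on low counts, 665 of the 8716 were higher at an unadjusted p under 0.05, where the background is 6.75%, and 1198 were lower, where it is 7.09%. Of the 3770 under 1 CPM, 268 (7.11%) were higher and 41 (1.09%) lower in that fit, against 5.86 and 1.07% of all 133013 peaks under 1 CPM.

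**Figure D3:**
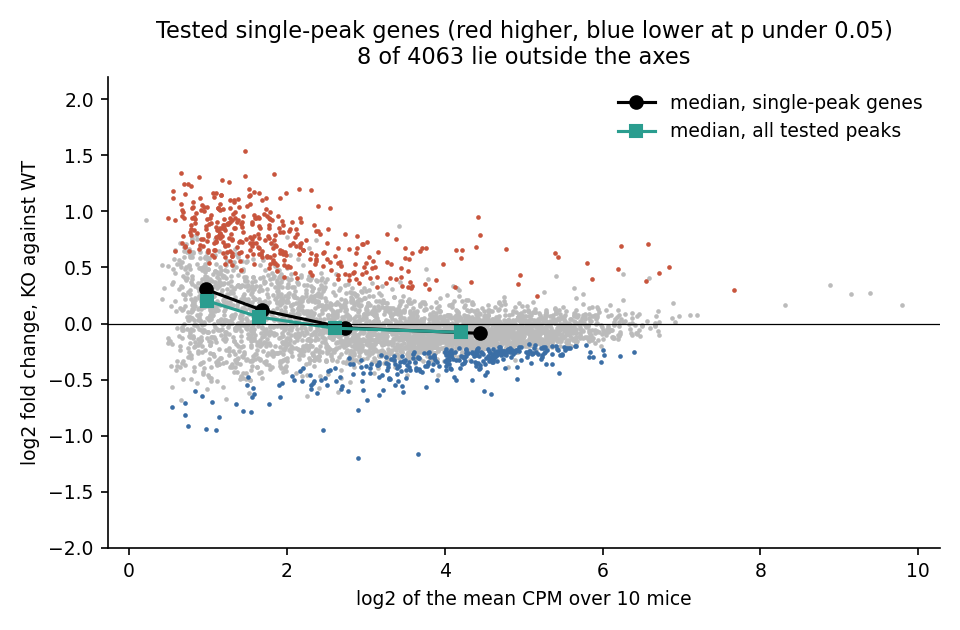
Log2 fold change of KO against WT (vertical axis) of the 4063 tested single-peak genes against log2 mean CPM (horizontal axis), red and blue for higher and lower at an unadjusted p under 0.05 and 8 points outside the axes. The black medians of the 4 abundance groups run from 0.30 to -0.09, close to the green medians of all tested peaks.

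Among the tested single-peak genes whose genotypes did not overlap, the 2 of lowest p in each direction are given by ID, since none had a symbol. The exact permutation p is fixed by that choice and is not given for them. ENSMUSG00000096755, between Sdr9c7 on chromosome 10 and Camk2b on chromosome 11, had 61.6, 61.7, 64.4, 43.1 and 61.3 CPM in WT1 to WT5 and 89.1, 84.8, 82.6, 110 and 93.6 CPM in KO6 to KO10. The KO mice lay between 82.6 and 110 CPM and the WT mice between 43.1 and 64.4 CPM (log2 fold change 0.69 ± 0.11 SE, edgeR adjusted p = 0.0594). ENSMUSG00000089796, between Apol6 and Prph on chromosome 15, was a weak peak with 16, 7, 13, 8 and 25 counts in WT1 to WT5 and 15 to 29 in the KO mice. Its level averaged 1.44 ± 0.404 CPM over the WT mice and 4.11 ± 1.29 CPM over the KO mice (SD, n = 5 each) (log2 fold change 1.54 ± 0.28 SE, edgeR adjusted p = 0.0615). The filter on low counts can be passed through 1 genotype alone, and the WT mice of this peak, at 0.961 to 2.08 CPM, lay near its limit. Its entry into the test thus rested on the KO mice, where it was high. Across 17 other settings for ENSMUSG00000096755 and 16 for ENSMUSG00000089796, the log2 fold changes stayed between 0.53 and 0.73 and between 1.37 and 1.68.

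In the other direction, ENSMUSG00000036646, between Cyp2c70 on chromosome 19 and Glo1-ps on chromosome 2, had 18.5 to 20.1 CPM in the WT mice and 13.1 to 16.2 CPM in the KO mice. The log2 fold change was -0.41 ± 0.10 (SE, edgeR adjusted p = 0.0807). ENSMUSG00000085260, which follows 2610507I01Rik and precedes Glp2r on chromosome 11, had 25.2, 23.5, 29, 24.5 and 32.2 CPM in WT1 to WT5 and 22, 19.8, 18.6, 17.7 and 20.1 CPM in KO6 to KO10. The highest KO mouse, KO6, lay below the lowest WT mouse, WT2 (log2 fold change -0.43 ± 0.11 SE, edgeR adjusted p = 0.0813). Gm9917, given next, had a lower p than both but overlapping groups.

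Of the 42 named genes 23 were tested, 9 higher and 14 lower in KO mice, and the 2 at an unadjusted p under 0.05 were both lower, where the background over all tested peaks is 5.65% lower and 10.4% higher. Gm9917 (ENSMUSG00000097099, chr9:107559126-107566965), a long noncoding RNA, had 18.3, 31.2, 30.9, 32.3 and 34.2 CPM in WT1 to WT5 and 16.7, 15.5, 20.9, 16.3 and 23.9 CPM in KO6 to KO10. WT1 lay within the range of the KO mice and the other WT mice above it. By edgeR the log2 fold change was -0.63 ± 0.15 (SE, unadjusted p = 0.000604, adjusted p = 0.078), and the exact permutation test gave p = 0.0238. 2610507I01Rik (ENSMUSG00000085882, chr11:59197793-59202431), another noncoding RNA, averaged 11.5 ± 1.14 CPM over the WT mice and 8.96 ± 0.614 CPM over the KO mice (SD, n = 5 each), with 4 of the 5 KO mice below every WT mouse and KO8, at 9.89 CPM, just above WT5. By edgeR the log2 fold change was -0.32 ± 0.13 (SE, unadjusted p = 0.0205, adjusted p = 0.22), and -0.26 with loess offsets, where the unadjusted p of edgeR was 0.0544.

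Cfi, complement factor I, which inactivates the complement fragments C3b and C4b, was the only named single-peak gene on the list of genes taken from the study's text. Its peak (ENSMUSG00000058952, chr3:129836727-129875332 for the gene) had 9.49, 8.32, 8.09, 10.8 and 9.60 CPM in WT1 to WT5 and 7.74, 8.42, 8.38, 6.78 and 7.34 CPM in KO6 to KO10. The groups overlapped through WT2 and WT3. The difference did not pass in edgeR (log2 fold change -0.23 ± 0.14 SE, unadjusted p = 0.113, adjusted p = 0.434, exact permutation p = 0.0476), and the log2 fold change was -0.39 without a filter and -0.32 with counts summed per gene ID, each at an unadjusted p under 0.05, and -0.09 with 1 surrogate variable, an estimated hidden factor.

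Slc10a2 (ENSMUSG00000023073, chr8:5083219-5105287), which takes up bile acids in the ileum, averaged 18 ± 3.16 CPM over the WT mice and 15.6 ± 1.40 CPM over the KO mice (SD, n = 5 each). The lowest value of all, 13 CPM, was that of WT2. By edgeR the log2 fold change was -0.18 ± 0.12 (SE, adjusted p = 0.498), with -0.27 without WT2 and -0.34 without a filter, both at an unadjusted p under 0.05, and -0.08 with 1 surrogate variable, -0.11 with loess offsets and -0.12 without WT4. Uckl1os (ENSMUSG00000010492, chr2:181578480-181585115), a noncoding RNA transcribed opposite Uckl1, averaged 26.7 ± 3.28 CPM over the WT mice and 23.2 ± 1.27 CPM over the KO mice (SD, n = 5 each). By edgeR the log2 fold change was -0.16 ± 0.10 (SE, adjusted p = 0.452), with WT4 at 32.4 CPM and the other WT mice between 24.7 and 26.1 CPM, and it was -0.09 without WT4, and -0.32 without a filter and -0.25 with summed counts, these at an unadjusted p under 0.05. ATAC-seq reads carry no strand, so a peak given to an opposite-strand gene cannot be told apart from one of the gene it overlaps.

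**Figure D4:**
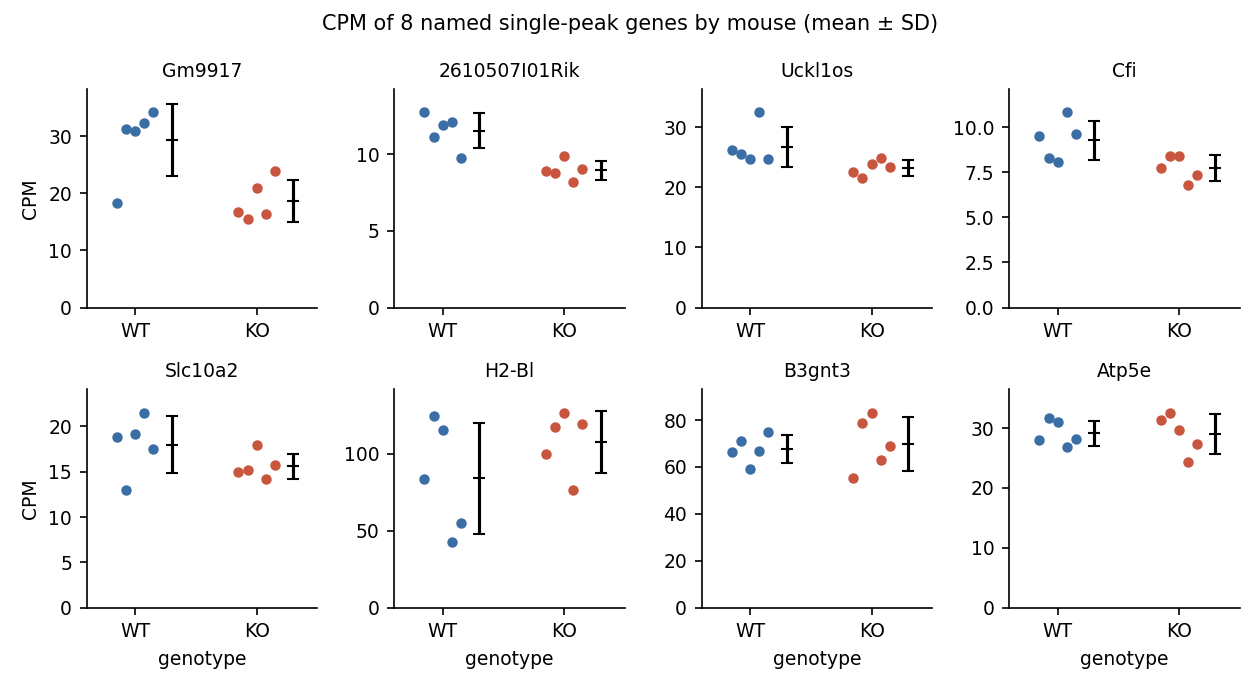
CPM (vertical axes, from 0) of 8 named single-peak genes in each WT mouse (blue) and KO mouse (red), with the mean ± SD of each group in black. The means of Gm9917 and 2610507I01Rik differ at an unadjusted p under 0.05 in edgeR, and in all 8 genes at least 1 WT mouse lies within the range of the KO mice or the reverse.

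The highest named peak, and the only named MHC gene, was that of H2-Bl (ENSMUSG00000073406, chr17:36080110-36084249), a class I-like pseudogene of the MHC. It had 83.4, 124, 115, 42.4 and 54.9 CPM in WT1 to WT5 and 99.9, 117, 127, 76.3 and 119 CPM in KO6 to KO10. WT4 and WT5 were low and the other WT mice lay within the range of the KO mice, and the log2 fold change of 0.40 had an SE of 0.22 (edgeR adjusted p = 0.38, exact permutation p = 0.23). At an unadjusted p under 0.05 in edgeR were 0.41 with loess offsets, 0.57 without WT2, 0.54 without WT3 and 0.50 without KO9, while the value was 0.13 with 1 surrogate variable, 0.23 without WT4 and 0.27 without WT5. Class I genes are near-identical copies, so the reads of this peak may belong in part to others. B3gnt3 (67.6 ± 6.01 and 69.7 ± 11.4 CPM in WT and KO mice, SD, n = 5 each) and Atp5e, the only named respiratory chain gene (29.2 ± 2.08 and 29 ± 3.28 CPM), differed between genotypes by less than the spread between mice. Rpl34, the only named cytosolic ribosomal protein gene, had 21 ± 2.36 and 19.5 ± 1.46 CPM, and Rpl34-ps1, by its symbol a pseudogene of it, had 10.7 ± 2.05 and 9.61 ± 0.958 CPM.

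Among genes with known roles elsewhere, Rdh16, a retinol dehydrogenase, averaged 22.5 ± 4.6 CPM over the WT mice and 19.2 ± 2.80 CPM over the KO mice (SD, n = 5 each). Inhba, a subunit of activin A, had 11.8 ± 1.82 and 11.1 ± 1.31 CPM. Krt12, the keratin of the corneal epithelium, had 25.2 ± 4.44 and 23.5 ± 6.05 CPM, and Krtap3-1, a hair keratin-associated protein, had 2.44 ± 0.59 and 3.11 ± 0.48 CPM (log2 fold change 0.33 ± 0.23 SE, edgeR adjusted p = 0.5). For each of these genes the groups overlapped. Neither keratin gene passed an unadjusted p of 0.05 in edgeR.

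Of the 15 gene lists, 6 held a named single-peak gene. Those were cytosolic ribosomal proteins, the respiratory chain, the MHC (1 gene each), keratins (2), antigen receptor segments (5) and predicted genes and pseudogenes (8). Of the last, 4 were tested and 2, Gm9917 and 2610507I01Rik, were lower at an unadjusted p under 0.05 (background 5.65%), and of the other lists none of the 5 tested genes passed it in edgeR. Of the 5 antigen receptor segments, V gene segments of the immunoglobulin loci that B cells rearrange, 0 passed the filter, and 9 lists (the proteasome, histones, zinc finger proteins, odorant receptors, small RNAs, antimicrobial proteins, cytokines, zinc handling and cell junctions) held no named gene. Among untested genes named after their values were seen, Serpina3n, an acute-phase protease inhibitor, had 0 to 6 counts in the WT mice, with 0 in WT2, and 3 to 10 in the KO mice, or 0.308 ± 0.277 and 1.02 ± 0.655 CPM (SD, n = 5 each, exact permutation test p = 0.0317). The gene 9330159F19Rik had 0.704 ± 0.219 and 1.2 ± 0.28 CPM (exact permutation test p = 0.0159), and Trim34b had 38 counts in all 10 mice together. These weak peaks did not enter the edgeR fit, and their p-values are not corrected for the choice of the genes. Of all peaks under 1 CPM, 5.86% were higher and 1.07% lower at an unadjusted p under 0.05 in edgeR without a filter.

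Single-peak genes lay next to each other more often than their share of gene IDs. The deposited entries appeared to be sorted as text by a running number (10 before 2), and with the numerical order restored every one of the 44580 gene IDs formed 1 unbroken stretch, against 66.1% of adjacent entries with the same ID as deposited and 81.7% as restored. The 249 named genes with a position formed 21 blocks for 21 chromosomes with 1 of 228 neighbouring pairs out of order, so neighbours in this inferred order were taken as neighbours on the chromosome. The gene ID after a single-peak gene was itself a single-peak gene in 36.8% of cases, against 19.6% of all IDs, and 5059 of the 8716 had another beside them. Between named genes of the same chromosome the share of IDs with a single peak ran from 14.4% on chromosome 18 to 26.2% on chromosome 7, with chromosome Y, of 4 such IDs, left aside. Over the 3109 tested single-peak genes with a tested peak directly beside them, the log2 fold change followed the mean of those neighbours weakly (Pearson's r = 0.318 across sites, which share the libraries and their scaling, with the same sign in 58.1%), and the level hardly at all (r = 0.09).

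There were 15 rows of 10 or more single-peak genes in succession, 193 genes in all, of which 85 were tested. At an unadjusted p under 0.05, 33 of these were higher (background 10.4% of all tested peaks) and 4 lower (background 5.65%). Of the 33, 17 lay in 1 row on chromosome 8 and 6 in 1 row on chromosome 7. The longest rows had 22 genes. In the row between Gm13689 and Ano3 on chromosome 2, 2 of 22 were tested and the median level was 0.454 CPM. In the row between Cdh13 and Fam89a on chromosome 8 all 22 were tested, all 22 had a log2 fold change above 0, from 0.32 to 0.93, and 17 were higher at an unadjusted p under 0.05 (lowest edgeR adjusted p = 0.0696), beside a background of 10.4%. Summed over this row, the level was 138, 191, 149, 93.0 and 110 CPM in WT1 to WT5 and 124, 185, 208, 233 and 233 CPM in KO6 to KO10. WT2 lay among the KO mice and KO6 among the WT mice, so the row was not higher in all KO mice. The count of 17 fell to 11 without KO9, to 10 without KO10 and to 3 with 1 surrogate variable in the model, and was 16 with loess offsets.

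In a row of 10 between Lypd3 and Fsd2 on chromosome 7, 8 were tested, all with a log2 fold change above 0, and 6 were higher at an unadjusted p under 0.05, beside a background of 10.4%. Its summed level was 73.4, 73.2, 70.0, 102 and 48.0 CPM in WT1 to WT5 and 146, 81.9, 86.6, 106 and 101 CPM in KO6 to KO10, with WT4 inside the range of the KO mice. The 3 rows of 10 or 11 between Inhba and Slc25a48 on chromosome 13, with 27 of 32 genes tested, had 0 higher (background 10.4%) and 2 lower (background 5.65%). Genes within a row share their place in the genome and may share sequence, so they are not separate replicates of a change. The rows of chromosomes 7, 8 and 13 were picked from the 15 after their values were seen, and no row was tested as such. Of the others, a row of 15 between C630043F03Rik and Gm12915 on chromosome 4 had 14 tested, 0 higher and 2 lower, a row of 15 between Ano3 and Fgf7 on chromosome 2 had 1 tested and higher, and a row of 14 between G530011O06Rik on chromosome X and Mid1-ps1 on chromosome Y had 5 tested and 3 higher. The background for these counts too is 10.4% higher and 5.65% lower over all tested peaks. It moves with level, at 17.4% higher and 1.66% lower in the weakest of the 4 abundance groups and 3.16 and 11% in the strongest. The rows differed in level, with medians of 5.18 CPM in the row of 22 on chromosome 8, 22.2 CPM in that of chromosome 4 and 1.36 CPM in the row of 14. No row was set against peaks of its own level.

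**Figure D5:**
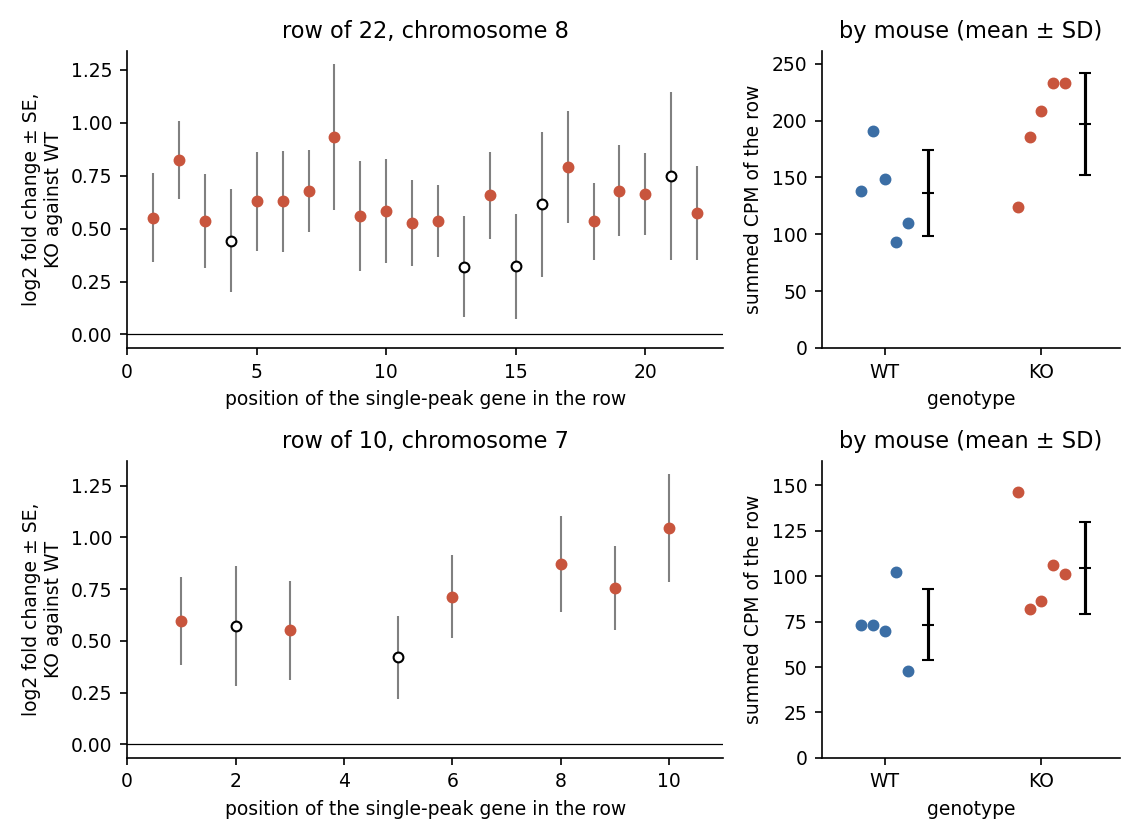
Left, log2 fold change ± standard error (vertical axis) of each tested gene by its position (horizontal axis) in the row of 22 on chromosome 8 and the row of 10 on chromosome 7, filled red at an unadjusted p under 0.05. Right, summed CPM of the row in each mouse with the mean ± SD, where WT and KO mice overlap in both rows.

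The 4 tested single-peak genes of largest fold change rested on KO7. In 7 single-peak genes, all within 100 peaks of a named Ighv or Igkv gene, KO7 had at least 50 counts at equal scale and was over 10-fold above every other mouse, with 153 to 2140 counts against 0 to 42, and no other mouse had such a gene. Over all peaks of the table, 14 met this rule in KO7, these 7 included, and 1 in KO6, so it was not particular to single-peak genes. Among the 7 is Ighv14-4, a heavy chain V segment, with 153 counts in KO7 and 4 to 18 in the other mice. The 4 of the 7 that were tested had log2 fold changes between 4.41 and 5.99, with unadjusted p between 0.00043 and 0.000871 from edgeR's quasi-likelihood test. Without KO7 they were between 0.21 and 1, with unadjusted p of 0.625, 0.0329, 0.0494 and 0.429 in edgeR. The row of 11 between Igkv8-24 and Igkv6-13 on chromosome 6, light chain V segments, summed to 386 CPM in KO7 and to 3.74 to 8.17 CPM in the other mice. V segments are close copies of each other, so the gene within the locus is uncertain. No lymphocyte marker of the fixed list was among the paired IDs, and the part of such cells in these values was not tested.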

How the data were processed

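The authors deposited raw counts per peak for 1 peak set shared by all mice (build mm10 per the labels), with a gene ID per peak, and a normalized signal that divides each count by 1 factor per mouse. The aligner, the peak caller, the duplicate and transposase-offset handling and the rule that gave peaks to genes are not given in the sources used here, and the number of single-peak genes depends on that rule. Only the raw counts were used. Neighbours were taken from an inferred running order, since the entries appear sorted as text. Single-peak genes, gene lists and names were chosen with earlier results of these data known.

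Peaks of the whole table that passed filterByExpr (81022 of 246479) were normalized by TMM and tested with edgeR 4.0.16 (glmQLFit, glmQLFTest, genotype only) under R 4.3.3, with Benjamini-Hochberg adjustment over all of them. The fit was tested on simulated data. Log2 CPM used a prior count of 2. For CPM the TMM factors of the tested peaks were applied to totals over all peaks, while the fits used totals over the tested peaks. CPM, the exact permutation tests and the counts of genes without overlap are therefore on a slightly different scale from the log2 fold changes. Atp5e had 29.2 CPM in WT and 29.0 CPM in KO mice but a log2 fold change of 0.03. Exact permutation tests ran over all 252 labelings of the mice. Each library is labelled as a separate mouse, and p-values measure the spread between these mice only. Counting noise limits weak peaks, since the median single-peak gene had 99 counts over all mice. Named genes were the 12 of lowest p in each direction without overlap of the groups (0 had a symbol), the 10 of highest level, those the study names and the 3 strongest of each list, plus 2 IDs higher and 2 lower in KO mice, and others were chosen after their values were seen. Symbols came from 302 ID pairs read from the supplement, 55 of them with the zeros of the ID restored. Alternatives were DESeq2 1.42.0, total counts, loess offsets (span 0.3), no filter, at least 10 counts in every mouse, 1 surrogate variable (sva 3.50.0), counts summed per gene ID and leaving out each mouse. Tables and figures used Python, pandas, scipy and matplotlib. Gene positions were looked up by symbol in RefSeq (GRCm38.p6).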

Additional observations from a re-analysis of the deposited data

Results flagged for a closer look

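A mouse was singled out where its gap to the nearest mouse of its genotype took more than 0.71 of the range of the group. Of 68 groups of 5 mice examined, 7 had such a mouse, and chance gives it in about 1 of 20 groups.

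In KO6, single-peak genes without the 3 strongest took 6.71% of the counts, against 6.99 to 7.10% in the other KO mice. ENSMUSG00000098178 had 21342 CPM in KO6 and 13777 to 15427 CPM in the other KO mice. ENSMUSG00000096755 had 43.1 CPM in WT4 and 61.3 to 64.4 CPM in the other WT mice. Gm9917 had 18.3 CPM in WT1 and 30.9 to 34.2 CPM in the other WT mice, and its log2 fold change without WT1, as without each other mouse, stayed between -0.76 and -0.57. Uckl1os had 32.4 CPM in WT4 and 24.7 to 26.1 CPM in the other WT mice. Ighv14-4 had 28.6 CPM in KO7 and 0.688 to 1.56 CPM in the other KO mice, and the row of 11 between Igkv8-24 and Igkv6-13 summed to 386 CPM in KO7 and to 4.62 to 8.17 CPM in the other KO mice.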

How the results depend on the processing

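No paired analysis was possible because no mouse number occurs in both genotypes (1 to 5 in WT, 6 to 10 in KO). At an unadjusted p under 0.05 the count of single-peak genes was 688 (372 higher, 316 lower), with 1863 (665 and 1198) without a filter, 351 (224 and 127) with 1 surrogate variable and 1102 (281 and 821) with counts summed per gene ID. With the surrogate variable 5.51% were higher and 3.13% lower, against 6.87 and 3.54% of all peaks. Without a filter 7.63% were higher and 13.7% lower, against 6.75 and 7.09% of all peaks. With summed counts 6.92% were higher and 20.2% lower, against 15.7 and 11.8% of all gene IDs. Total counts gave 541 lower (13.3%, all peaks 8.74%) and loess offsets 198 lower (4.87%, all peaks 6.12%). Leaving out each mouse gave 541 to 859, 295 to 456 higher and 215 to 403 lower. At an adjusted p under 0.05 the count was 0, and 28 with DESeq2, 26 without a filter (0.298%, all peaks 0.16%), 45 with at least 10 counts in every mouse, 4 with 1 surrogate variable (0.0984%, all peaks 0.0074%), 109 with summed counts (2.68%, all gene IDs 3.91%) and 0 to 95 on leaving out each mouse, the last without WT2 (2.27%, all peaks 2.19%). The median log2 fold change was -0.11 with total counts, -0.13 with summed counts and -0.06 to -0.04 on leaving out each mouse. The difference of KO minus WT in the share of counts ran from 0.704 to 3.21 percentage points on leaving out each mouse. It was 0.434 points with the peak of highest count taken out. The difference in the share with a count was -1.83 points as deposited, 5.53 with at least 5 counts, and 1.44 to 2.55 on leaving out each mouse. With loess offsets the log2 fold changes of the 3 strongest peaks were -0.34, -0.20 and -0.24, below 0 where they were above it. The cause of these shifts was not tested. Settings for the rows of genes and for the share at 10 CPM or more, which stayed between 23.5 and 23.8%, were chosen after seeing the data. ENSMUSG00000089796 and Krtap3-1 had under 10 counts in a mouse and so no value under that filter. Depth limits the 3770 genes under 1 CPM, of which 0 passed the filter.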
